A study of Mus musculus with 5 samples.

Results

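Mouse lung ILC2s taken from tumour-bearing mice in week 2 were measured by single-cell RNA sequencing, either freshly isolated (ta-non-activated) or after 7 days in culture (ta-activated), and the comparison of these libraries is described here gene by gene. Both came from female C57BL/6 wild-type mice aged 4 to 8 weeks that had received TC1 cells, a mouse lung tumour line, under the skin of the right flank. The study used 5 mice per group and digested the lungs of 5 mice together, so mice cannot be told apart within a library. The tumour lay outside the lung, so the cells are ILC2s of the lungs of tumour carriers and not cells taken from a tumour. Lungs were digested with collagenase, hyaluronidase and DNase, enriched by negative selection, and sorted as lineage-negative CD45+ Thy1.2+ CD127+ ST2+ cells. The ta-activated cells were then kept in serum-free StemSpan medium with human IL-2, mouse IL-33 and TSLP, each at 10 ng/mL. No library of cells cultured without these cytokines was part of the design, so culture itself and the cytokines cannot be told apart. A naïve library from mice without a tumour and a pair of libraries from week 3 (fresh and cultured in the same way) serve below as side values. The naïve matrix was made with Cell Ranger 6.0.0 and the others with 3.0.2. The part of this in the naïve values was not tested.

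ILC2s are tissue lymphocytes without antigen receptors that respond to alarmins, the cytokines IL-33 and TSLP that epithelial cells release on damage. IL-33 binds ST2 (the product of *Il1rl1*) and signals through NF-kB, TSLP signals through its own receptor chain together with the IL-7 receptor, and IL-2 signals through STAT5 and sustains growth. Activated ILC2s are known for secreting IL-5, which recruits eosinophils, and IL-13, which acts on mucus-producing epithelium and smooth muscle, and for amphiregulin, which takes part in epithelial repair. Interferons, in contrast, are known to restrain ILC2 growth and type 2 cytokine production.

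The cells were chosen by 3 measured values. A barcode was kept with at least 200 detected genes, under 5% of its counts (unique molecular identifiers, UMIs) from mitochondrial genes, and at least 1 UMI of *Gata3* or *Il1rl1*. This kept 1770 ta-non-activated and 2712 ta-activated cells, 4482 of the 18628 barcodes in all 5 libraries. *Gata3* encodes the transcription factor that defines ILC2s, and its level (340 CPM in fresh and 585 CPM in cultured cells, where CPM is UMIs per 1e+06 UMIs, summed over cells), like that of *Il1rl1* (57.0 and 48.1 CPM), is part of the rule and no finding. Cells with both genes were 48.4% of fresh and 15.4% of cultured cells, and cells with *Gata3* alone 50.3% and 84.0%. At the edge of the gate, 96 fresh and 138 cultured cells held exactly 1 UMI of these genes, and 53 and 183 barcodes that passed the other limits held none. The mitochondrial limit removed 30 fresh and 683 cultured barcodes. Just inside it, 11 fresh and 673 cultured gated cells lay between 4 and 5%, and the median share was 1.68% in fresh and 3.28% in cultured cells.

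Both libraries were deep. The gated cells held 32830518 UMIs in the fresh library (median 16279 per cell) and 55687269 in the cultured one (median 14209.5 per cell). The 2 libraries shared 2 gated cell barcodes. With 1 library on each side there is no replicate, no test and no p-value: the 95% intervals given with log2 ratios are exact conditional intervals for counting error only, and do not cover differences between mice, cultures or libraries. Of 14 other ILC2 genes checked, among them *Thy1*, *Il7r* and *Bcl11b*, 14 reached 10 CPM in the fresh and 13 in the cultured library. The exception was *Klrg1*, at 7.43 CPM in cultured cells. *Rora* was at 161 and 204 CPM, compared with 3078 CPM in naïve cells. In both week 2 libraries *Cd4*, *Cd8a*, *Cd3e* and *Trac* lay at or below 2.82 CPM. Summed markers of T cells came to 367 CPM in fresh and 761 CPM in cultured cells, most of it from *Trbc2*, *Lat* and *Cd3g*. Those of NK cells or ILC1s came to 3.14 and 27.2 CPM and those of myeloid cells to 1.04 and 2.95 CPM. Those of mast cells or basophils came to 0 and 124 CPM, nearly all of it *Mcpt8*. Sums were 9.11 and 36.1 CPM for B cells, 3.59 and 42.0 CPM for erythroid and 32.4 and 49.9 CPM for epithelial markers. Fibroblast markers came to 0.609 and 24.1 CPM and endothelial markers to 25.1 and 19.4 CPM. Granulocyte, dendritic cell and platelet sums were each at or below 6.25 CPM.

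The week 2 fresh library stood apart from the other fresh libraries, and every ratio below has it as the denominator. *Il13* was at 8926 CPM in it, against 34.3 CPM in week 3 fresh and 59.1 CPM in naïve cells. *Il9* was at 12687 CPM, against 0 and 0.0992 CPM. In the other direction *Dusp1*, an early-response phosphatase, was at 7.31 CPM in the week 2 fresh library, and at 419 CPM in week 3 fresh and 488 CPM in naïve cells. Across 9045 genes the Spearman correlation of its levels was 0.85 with the week 2 cultured library and 0.83 with the week 3 cultured library, compared with 0.80 with week 3 fresh and 0.56 with naïve cells (a description over genes, which are not independent). Of 153 genes at least 4-fold lower in both cultured libraries than in both of the other fresh libraries, the week 2 fresh library was on the cultured side of the midpoint for 148 (96.7%). Of 180 genes at least 4-fold higher in both cultured libraries, it was on the cultured side for 74 (41.1%). The week 2 fresh library was thus on the cultured side for nearly all of the genes that were low in culture and for a minority of those that were high, and for genes such as *Il9* and *Il13* it lay above both cultured libraries. Whether the state of that library came from the mice, the isolation or its handling was not tested.

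Over the 7524 genes with at least 10 CPM in 1 or both week 2 libraries, 1251 (16.6%) were at least 2-fold higher and 839 (11.2%) at least 2-fold lower in ta-activated cells, and the median log2 ratio was 0.06. These shares of all genes are the background for each week 2 list count below. The genes with the highest ratios were of the interferon response (*Ifi27l2a*, *Ifit3*, *Ifit1*, *Ifitm1*, *Isg15*, *Irf7*, *Iigp1*) and of secretory granules (*Gzmb*, *Gzmc*, *Mcpt8*), with *Slpi*, *Ly6c1*, *Ms4a6b*, *Ms4a4b* and *Selenom*. The genes with the lowest ratios were cytokine genes (*Il9*, *Csf2*, *Il22*), the iron hormone gene *Hamp*, genes of ribosome assembly (*Rrp15*, *Nop16*, *Gar1*, *Rcl1*) and a mixed remainder (*Plscr1*, *Ccdc50*, *Hacd3*, *Srm*, *Hspd1*, *Mir155hg*, *Bzw2*). With edgeR's TMM factors in place of total counts every log2 ratio was lower by 0.21, and the counts became 957 higher and 1208 lower. With DESeq2 size factors the shift was 0.24 and the counts were 921 and 1268. The share of higher genes among all that passed 2-fold therefore depends on the scaling, and ratios within that distance of 0 have no settled direction.

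**Figure D1:**
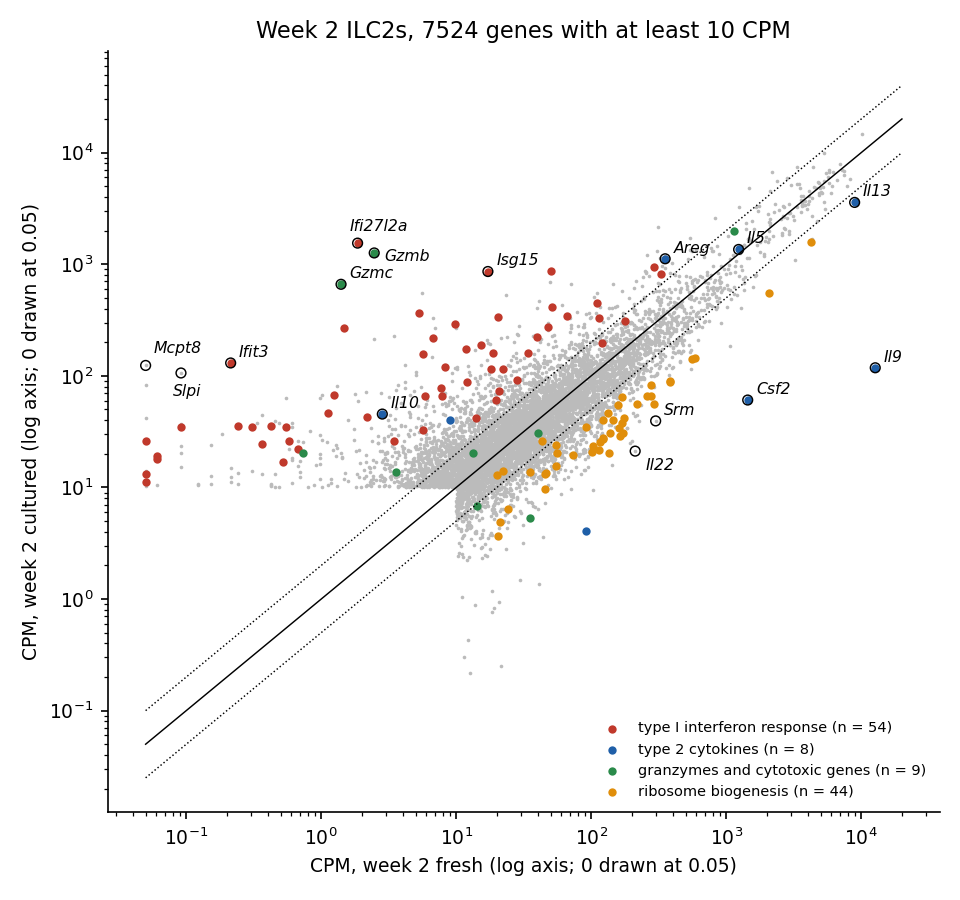
Each point is 1 of 7524 genes, with its CPM in week 2 fresh (x axis) and week 2 cultured ILC2s (y axis), both on log axes with 0 drawn at 0.05. The solid line marks equal levels and the dotted lines 2-fold. Interferon response genes (red) lie above the lines at left, ribosome biogenesis genes (orange) below them, and *Il9* and *Csf2* far below.

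The type 2 cytokines did not move together. *Il9*, a mast cell and ILC2 growth factor, was 108-fold lower in cultured cells, from 12687 to 118 CPM (log2 ratio -6.75, interval -6.78 to -6.71). *Csf2*, which encodes GM-CSF, went from 1441 to 60.6 CPM (-4.57, interval -4.62 to -4.52), and *Il6* from 91.8 to 4.08 CPM (-4.49). *Il13* was lower as well, at 8926 and 3575 CPM (-1.32), and *Il5* was nearly level at 1234 and 1355 CPM (0.13, within the shift between scalings). The remaining genes of the list were higher. *Areg*, which encodes amphiregulin, was at 352 CPM in fresh and 1118 CPM in cultured cells (1.67), *Il4* at 9.02 and 39.9 CPM (2.15), and the regulatory cytokine *Il10* at 2.83 and 45.4 CPM (4.0). Of the 8 genes of the list with at least 10 CPM, 3 (37.5%) were thus at least 2-fold higher and 4 (50%) at least 2-fold lower. *Il22*, the cytokine of type 3 lymphocytes that acts on epithelium, was at 211 and 21.1 CPM (-3.32).

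The drop in *Il13* depended on the gate. In cells with UMIs of both *Gata3* and *Il1rl1* its log2 ratio was -0.43, and that of *Il5* was 1.01. *Il9* (-5.16) and *Csf2* (-3.37) stayed far below the fresh level in those cells.

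Per cell, *Il13* was widespread in both libraries. To compare cells at 1 depth, 2000 UMIs were drawn at random from every cell, and 4 fresh and 31 cultured cells below that depth were left out. *Il13* was found in 89.4% of fresh (interval 87.8 to 90.8) and 75.0% of cultured cells (interval 73.3 to 76.6), and before thinning in 95.8% and 92.5%. *Il9* was found in 38.6% of fresh and 1.04% of cultured cells (59.8% and 2.47% before thinning), and *Csf2* in 71.7% and 5.63% (91.6% and 20.3%). *Il9* was therefore uneven among fresh cells, where the tenth of cells with the most held 66.7% of its UMIs after thinning. *Areg* went the other way, with 22.8% of fresh and 55.9% of cultured cells (52.7% and 84.3% before thinning). No type known to lack these genes was at hand among the barcodes of these libraries. The nearest comparison is the barcodes without *Gata3* or *Il1rl1* UMIs, 43 fresh and 141 cultured ones with at least 2000 UMIs, at medians of 8976 and 8166 UMIs before thinning, compared with 16310 and 14335 in gated cells. In them *Il13* was found in 48.8% and 22.7%, *Il9* in 20.9% and 0%, *Csf2* in 37.2% and 4.26% and *Areg* in 11.6% and 14.2%. The share of cultured cells with *Csf2* is close to that in the gate-negative barcodes, so at this depth it cannot be told from free RNA.

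**Figure D2:**
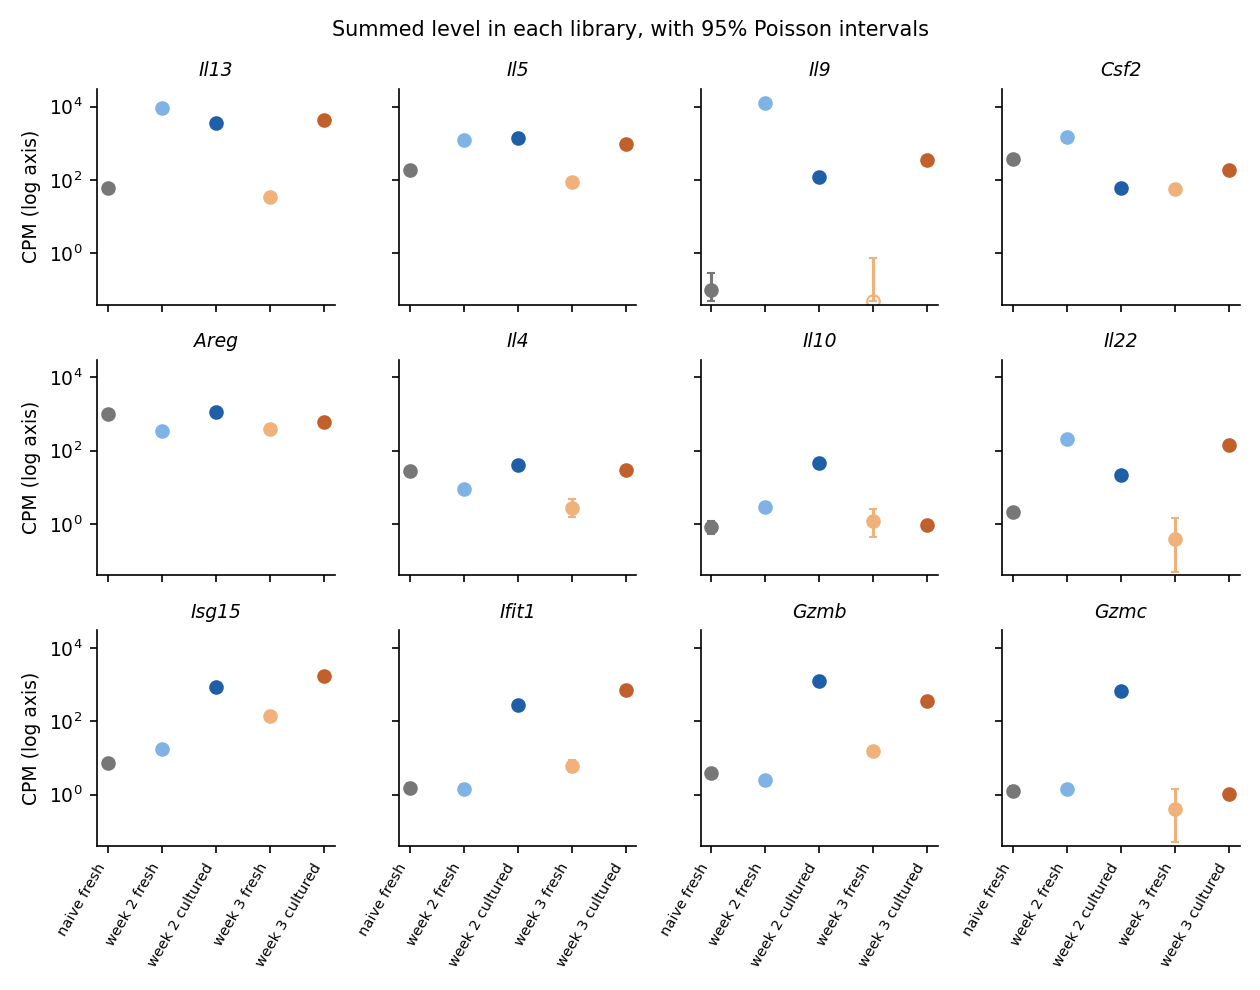
Level of 12 genes in each of the 5 libraries in CPM (log axis), with 95% Poisson intervals for counting error where they are wider than the point. An open point marks a count of 0, drawn at 0.05. For *Il13* and *Il9* the week 2 fresh library is the highest of the 5, and for *Gzmc* only the week 2 cultured library is above 2 CPM.

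Among receptor chains for the cytokines in the culture medium, *Il2ra*, *Il7r* and *Crlf2* were higher in cultured cells, while *Il1rl1* is part of the gate. *Il2ra*, the high-affinity IL-2 receptor chain, was at 322 CPM in fresh and 1131 CPM in cultured cells (log2 ratio 1.81), and *Il7r*, shared by the receptors for IL-7 and TSLP, at 169 and 574 CPM (1.77). *Crlf2*, the chain particular to the TSLP receptor, was at 41.6 and 122 CPM (1.55). Receptors for cytokines that were not added to the medium moved unequally. *Il18r1* (2.40) and *Il21r* (5.02, from 0.518 to 16.8 CPM) were higher. *Tnfrsf25*, the receptor for the TNF-family cytokine TL1A, was lower (149 and 34.8 CPM, -2.10). Of 23 receptor genes with at least 10 CPM, 9 (39.1%) were at least 2-fold higher and 3 (13.0%) at least 2-fold lower, the second close to the 11.2% of all genes, and the median log2 ratio was 0.80. *Il17rb*, the IL-25 receptor chain, was at 2.10 and 0.395 CPM, under the limit for a count here.

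Transcription factor genes of the ILC2 lineage were mostly higher. Of 17 with at least 10 CPM, 8 (47.1%) were at least 2-fold higher and 0 at least 2-fold lower (median 0.96). Ratios of 4 were below 0, the lowest at -0.90, which passes 2-fold lower with TMM or DESeq2 scaling. *Maf* (37.0 and 227 CPM, 2.61), a regulator of *Il10* and *Il4*, *Nfil3* (2.06), an early ILC factor, and the zinc finger gene *Ikzf3* (1.75) had the largest ratios, and *Prdm1*, which encodes Blimp-1, was at 15.7 and 41.2 CPM (1.39). *Tbx21*, which directs the type 1 programme, was at 0.244 CPM in fresh and 0.215 CPM in cultured cells. *Ifng* was at 3.26 and 7.08 CPM, and only a few cells held it, as described below.

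Surface and effector genes of activated ILC2s differed in both directions. Of 21 with at least 10 CPM, 9 (42.9%) were at least 2-fold higher and 5 (23.8%) at least 2-fold lower in cultured cells, beside 16.6% and 11.2% of all genes, with a median log2 ratio of 0.64. *Icos*, a costimulatory receptor, was at 351 and 1172 CPM (1.74), found in 40.7% of fresh and 86.9% of cultured cells after thinning (80.8% and 97.8% before, and 44.2% and 47.5% of the gate-negative barcodes). *Calca*, the gene of calcitonin gene-related peptide, was at 6.61 and 148 CPM (4.49), *Arg1*, arginase 1, at 5.21 and 41.8 CPM (3.0), and the surface marker *Ly6a* at 2185 and 6766 CPM (1.63). *Ctla4* went from 3 UMIs in fresh cells to 23.6 CPM (8.02, interval 6.47 to 10.29), *Tnfrsf9* from 17.9 to 192 CPM (3.42), and *Cd274*, which encodes PD-L1, from 15.4 to 63.3 CPM (2.04). Of the 13 costimulatory and inhibitory receptor genes with at least 10 CPM, 7 (53.8%) were at least 2-fold higher and 1 (7.69%) at least 2-fold lower. The steroid synthesis gene *Cyp11a1* and the IL-1 decoy receptor gene *Il1r2*, named after their values were seen, were at 49.2 and 686 CPM (3.80) and at 9.96 and 267 CPM (4.74). *Tph1*, the enzyme gene of serotonin synthesis in ILC2s, was lower, at 427 and 205 CPM (-1.06), but under 2-fold without cycling cells (-0.72) or with both gate genes required (-0.19). In week 3 *Tph1* had the opposite direction, with 7.03 CPM in fresh and 1654 CPM in cultured cells (7.88).

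The type I interferon response list was the most uniform of the lists. Its counts cover the listed genes only, and *Plscr1*, among the lowest genes above (-3.15), is not in it. Of 54 type I interferon response genes with at least 10 CPM, 52 were at least 2-fold higher in cultured cells and 0 at least 2-fold lower, with a median log2 ratio of 3.96, beside 16.6% and 11.2% over all genes. *Ifi27l2a* was at 1.86 CPM in fresh and 1544 CPM in cultured cells (9.70, interval 9.34 to 10.09), *Isg15*, a ubiquitin-like modifier, at 17.1 and 860 CPM (5.65), and *Ifit1*, which binds foreign RNA, at 1.46 and 270 CPM (7.53). *Ifit3* rested on 7 UMIs in fresh cells and 130 CPM in cultured cells (9.25, interval 8.21 to 10.57). The transcription factors of the response were higher too, with *Irf7* at 6.67 and 220 CPM (5.04) and *Stat2* at 7.71 and 76.9 CPM (3.32). The membrane proteins of the IFITM family block viral entry, and *Ifitm1* (5.33 and 368 CPM), *Ifitm2* (20.5 and 339 CPM) and *Ifitm3* (50.4 and 873 CPM) were all higher, with *Ifitm1* and *Ifitm3* uneven among cells as given below, although reads shared between these neighbouring paralogs may be split or lost.

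Transcripts of the interferons themselves were few over the whole libraries, under the limit for a count. Of the 8 interferon genes listed, 0 reached 10 CPM in either library, and they summed to 3.32 CPM in fresh and 7.15 CPM in cultured cells. *Ifng* was present in a few cultured cells: 391 of its 394 UMIs lay in the 40 cells rich in *Gzmc* described below, at 248 CPM in them. *Ifngr1*, a chain of the interferon gamma receptor, was at 30.9 and 41.7 CPM (0.44).

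At equal depth *Isg15* was found in 3.34% of fresh cells (interval 2.55 to 4.29) and 67.5% of cultured cells (interval 65.7 to 69.3), *Ifi27l2a* in 0.566% and 63.0%, and *Ifit1* in 0.566% and 37.6%. Before thinning the shares were 12.5% and 95.1%, 1.13% and 74.7%, and 1.98% and 70.8%. *Isg15* transcripts were thus found in most of the cultured cells. In the gate-negative barcodes of the cultured library *Isg15* was found in 66.0%, *Ifi27l2a* in 44.7% and *Ifit1* in 28.4%, so the share of *Isg15* in gated cells is close to that outside the gate and cannot be told from free RNA by this comparison. For the other genes the part of free RNA was not tested.

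The start regions of these genes were read for the interferon-stimulated response element, a site bound by STAT2 and IRF proteins, taken as the letters GAAANNGAA on either strand. RefSeq promoter windows (GRCm38.p6, 250 bases before to 50 after a gene's start) were found for 43 of the 54 genes, and 26 of these (60.5%) held the letters. Among all 32851 windows the share was 8.56%, and among the genes with at least 10 CPM it was 9.08%. The median log2 ratio was 4.08 for the 26 genes and 3.09 for the other 17. The 150 bases before the start are shown for 3 genes that hold the letters and for *Irf7*, which holds none in its window, with the matched letters in capitals, 5′ to 3′ on the gene's strand. They lie at chr19:34640739-34640888 (+), chr19:34583379-34583528 (+), chr4:156200819-156200968 (-) and chr7:141266425-141266574 (-) in the order printed.
Ifit1: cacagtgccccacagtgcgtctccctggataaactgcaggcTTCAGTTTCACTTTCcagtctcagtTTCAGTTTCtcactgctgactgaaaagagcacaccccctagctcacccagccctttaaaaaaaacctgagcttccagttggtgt
Ifit3: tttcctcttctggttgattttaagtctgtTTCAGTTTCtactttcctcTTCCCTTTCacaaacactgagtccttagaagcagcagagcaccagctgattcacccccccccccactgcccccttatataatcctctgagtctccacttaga
Isg15: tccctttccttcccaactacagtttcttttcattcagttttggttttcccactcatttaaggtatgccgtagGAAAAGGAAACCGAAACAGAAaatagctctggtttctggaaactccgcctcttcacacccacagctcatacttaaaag
Irf7: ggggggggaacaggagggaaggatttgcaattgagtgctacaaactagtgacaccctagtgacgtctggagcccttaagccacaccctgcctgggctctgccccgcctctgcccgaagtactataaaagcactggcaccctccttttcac
The matches begin 109, 103 and 84 bases before the start of *Ifit1*, 121 and 102 before that of *Ifit3*, and 78, 72 and 66 before that of *Isg15*, where they overlap in 1 run. A match is a description of these letters and not of binding.

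Genes known to respond mostly to interferon gamma were higher as well. Of 18 GTPase and chemokine genes with at least 10 CPM, 15 (83.3%) were at least 2-fold higher and 0 lower (median 2.37). They were led by *Iigp1* (6.67 and 330 CPM, 5.63) and the guanylate-binding proteins *Gbp8* (3.92), *Gbp9* (3.89) and *Gbp6* (3.88). *Cxcl10*, a chemokine for type 1 lymphocytes, was at 43.5 and 47.4 CPM (0.12, within the shift between scalings). In a separate list of chemokines, 0 of 6 genes with at least 10 CPM were at least 2-fold higher and 3 (50%) at least 2-fold lower (median -0.72). Antigen presentation by class I was higher in part, with 10 of 22 genes (45.5%) at least 2-fold higher and 0 lower (median 0.95). *B2m* was at 1239 and 3221 CPM (1.38), the peptide transporter *Tap1* at 70.3 and 202 CPM (1.52), and *Nlrc5*, the activator of class I genes, at 12.6 and 47.0 CPM (1.89). Of 7 class II pathway genes with at least 10 CPM, 3 (42.9%) were at least 2-fold higher and 0 lower (median 0.98). Genes of the class II chains were low: *H2-Aa* was at 12.9 and 12.1 CPM, *H2-Eb1* at 16.6 and 13.3 CPM and *H2-Ab1* at 18.7 and 48.3 CPM (1.37). Their direction depended on the cells compared. In cells called cycling (defined below) the log2 ratios of *H2-Aa*, *H2-Eb1* and *H2-Ab1* were -2.36, -2.89 and -1.12, and in other cells 1.12, 0.92 and 2.84. Fresh *H2-Aa* was at 63.7 CPM in cycling and 5.48 CPM in other cells, and 49.6% of the cultured *H2-Aa* UMIs lay in 40 cells rich in *Gzmc*, described next.

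Granzyme genes appeared in cultured cells in different ways. *Gzmb*, the main granzyme of cytotoxic lymphocytes, was at 2.47 CPM in fresh and 1260 CPM in cultured cells (9.0, interval 8.68 to 9.33), in 0.170% and 21.7% of cells after thinning (0.621% and 32.6% before). *Gzmc*, a neighbouring paralog on chromosome 14, was at 1.40 and 660 CPM (8.88), but in 2.50% of the cultured cells (11.7% before thinning). In the gate-negative barcodes of the cultured library *Gzmb* was found in 32.6% and *Gzmc* in 21.3%, above the gated cells in both cases. Barcodes with these transcripts were thus more frequent outside the gate than in it. With no gate the log2 ratio was 9.05 for *Gzmb* and 9.47 for *Gzmc*. The part of free RNA in these shares was not tested.

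Within the gate the *Gzmc* transcripts came from a small set of cells. The 40 cultured cells with at least 10 *Gzmc* UMIs, 1.47% of the gated cells, held 99.1% of its UMIs, and the level outside them was 6.17 CPM. They also held 99.2% of the *Ifng*, 98.7% of the *Ncr1*, 97.4% of the *Ccl1*, 85.0% of the *Il22* and 73.7% of the *Nkg7* UMIs of the gated cultured cells, and 12.6% of those of *Gzmb*. Their *Gata3* level was 255 CPM, compared with 595 CPM in the other cells, and *Il13* was at 3372 and 3581 CPM. The 40 cells held 2.83% of all UMIs of the gated cultured cells, the share to set beside these. NK genes were concentrated in them, with 98.4% of the *Klrd1* UMIs (350 CPM, and 0.166 CPM in the other cells) and 77.4% of *Klrk1*. T cell genes were so only in part. The 40 cells held 70.0% of *Tcf7*, 39.4% of *Cd3g* (2390 and 107 CPM) and 28.6% of *Cd3d*. For *Trbc1* (3.64%), *Trbc2* (3.08%) and *Lat* (2.17%) the share was near that of all UMIs. *Cd3e* was at 6.99 and 2.70 CPM and *Trac* at 3.18 and 2.68 CPM. The median depth of the 40 cells was 30378 UMIs, compared with 13980 in the other cells. Whether they were doublets or cells of another type was not tested. These cells were picked by *Gzmc* after the values had been seen. Without them the log2 ratio of *Gzmc* was 6.08, that of *Il22* -6.02 and that of *Ifng* -5.41, so the higher level of *Ifng* in cultured cells was theirs.

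*Mcpt8*, a granule protease known from basophils, had 0 UMIs in fresh cells and 124 CPM in cultured cells. That is 1355-fold higher against a floor of 3 counts in the fresh library, and the interval of the log2 ratio begins at 10.105. *Mcpt8* was found in 5.07% of cultured cells after thinning and 12.6% before, while in week 3 cultured cells it was at 1.07 CPM. The other basophil and mast cell markers *Cpa3*, *Fcer1a*, *Ms4a2* and *Gata2* were each at or below 0.395 CPM. *Slpi*, which encodes an inhibitor of serine proteases, rested on 3 UMIs in fresh cells and was at 106 CPM in cultured cells (10.18, interval 8.63 to 12.46), in 6.23% of cells (20.8% before thinning). *Pth*, the parathyroid hormone gene, lies outside the naming rule and was noticed after its values were seen: it was at 23.4 and 527 CPM (4.50), in 0.963% of fresh and 4.44% of cultured cells, with up to 3344 UMIs in 1 cell. In the gate-negative barcodes of the cultured library *Mcpt8* was found in 2.13%, *Slpi* in 1.42% and *Pth* in 4.26%. For *Pth* that is close to the gated share, but its UMIs were uneven among cells, with 3344 in 1 of them. The part of free RNA was not tested.

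**Figure D3:**
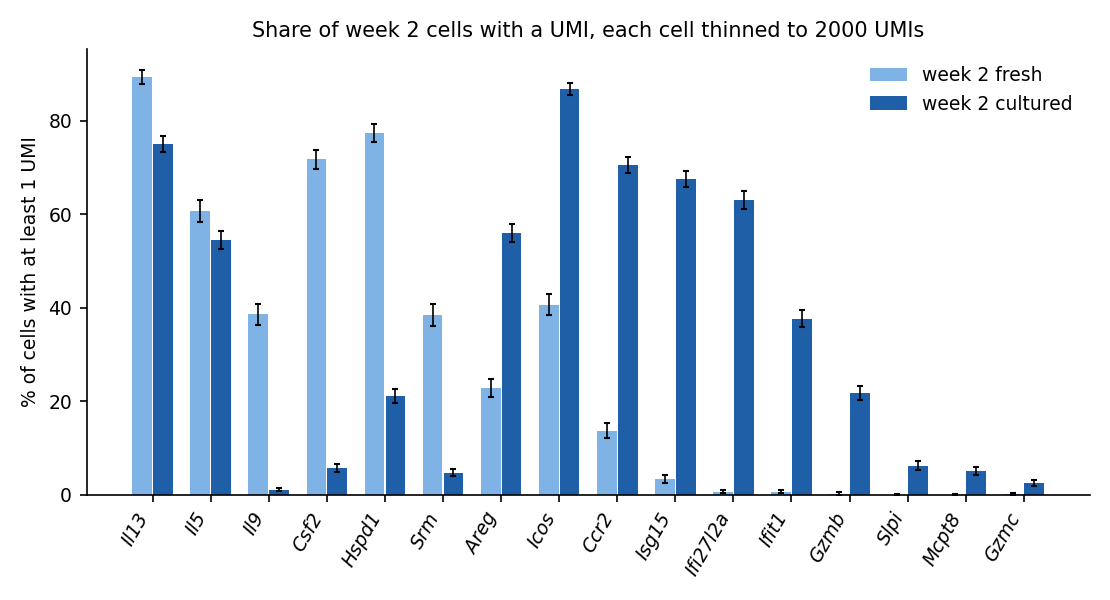
Share of week 2 fresh (light) and cultured (dark) ILC2s with at least 1 UMI of each of 16 genes, each cell thinned to 2000 UMIs. Bars start at 0 and error bars are exact 95% binomial intervals for counting error. *Il9*, *Csf2*, *Hspd1* and *Srm* are more frequent in fresh cells, and *Isg15*, *Ifi27l2a* and *Ccr2* in cultured cells.

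Genes of NF-kB signalling, the pathway below the IL-33 receptor, were level or lower in cultured cells. Of 19 subunit and feedback genes, 0 were at least 2-fold higher and 7 (36.8%) at least 2-fold lower, with a median log2 ratio of -0.83. *Nfkb2* (100 and 30.9 CPM, -1.70) and *Relb* (87.0 and 30.4 CPM, -1.52) encode subunits of the non-canonical arm, *Nfkbib* (-1.44) an inhibitor, *Traf1* (443 and 168 CPM, -1.40) a signalling adaptor, and *Cd83* went from 18.5 to 0.772 CPM (-4.58). In cells with both gate genes *Nfkb2* (-0.92) and *Traf1* (-0.71) no longer passed 2-fold. Ligands of the TNF family had the same tendency, with 4 of 9 (44.4%) at least 2-fold lower and 1 (11.1%) at least 2-fold higher. *Tnf* was at 86.5 and 21.8 CPM (-1.99), *Lta* at 141 and 36.3 CPM (-1.95) and *Tnfsf4*, which encodes OX40 ligand, at 31.1 and 3.18 CPM (-3.29). *Ltb* was the exception, at 69.7 and 327 CPM (2.23).

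Early-response genes were split. Of 17 AP-1 and other immediate early genes, 5 (29.4%) were at least 2-fold higher and 5 (29.4%) at least 2-fold lower. *Jun* (36.1 and 13.4 CPM, -1.43, but -0.83 with both gate genes required) and *Klf4* (-1.44, but -0.58 as a mean over cells) were lower, and *Jund* (393 and 1016 CPM, 1.37), *Dusp6* (2.27) and *Btg2* (1.65) higher. Factors that degrade cytokine mRNA were mostly higher, with 7 of 13 (53.8%) at least 2-fold higher and 1 (7.69%) lower. *Zfp36*, which encodes tristetraprolin, was at 5.94 and 44.2 CPM (2.89) and *Btg1* at 252 and 852 CPM (1.75). *Zc3h12a*, which encodes the nuclease Regnase-1, was at 58.2 and 19.8 CPM (-1.56, but -0.73 with both gate genes required).

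Receptors for migration were higher in cultured cells. Of 11 chemokine and tissue exit receptors with at least 10 CPM, 9 (81.8%) were at least 2-fold higher and 1 (9.09%) lower (median 2.18). *Ccr2*, which guides exit from bone marrow and entry into inflamed tissue, was at 70.4 and 669 CPM (3.25), in 13.6% and 70.6% of cells after thinning (39.4% and 93.1% before, and 11.6% and 39.7% of gate-negative barcodes). *Ccr1* (4.47), *Ccr10* (6.27, from 0.487 to 37.6 CPM) and the residency marker *Cd69* (2.18) were also higher. Among integrins *Itgae*, which binds E-cadherin, was at 3.56 and 74.5 CPM (4.39), *Itgal* at 31.5 and 117 CPM (1.90) and *Itgb1* at 106 and 28.9 CPM (-1.87).

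**Figure D4:**
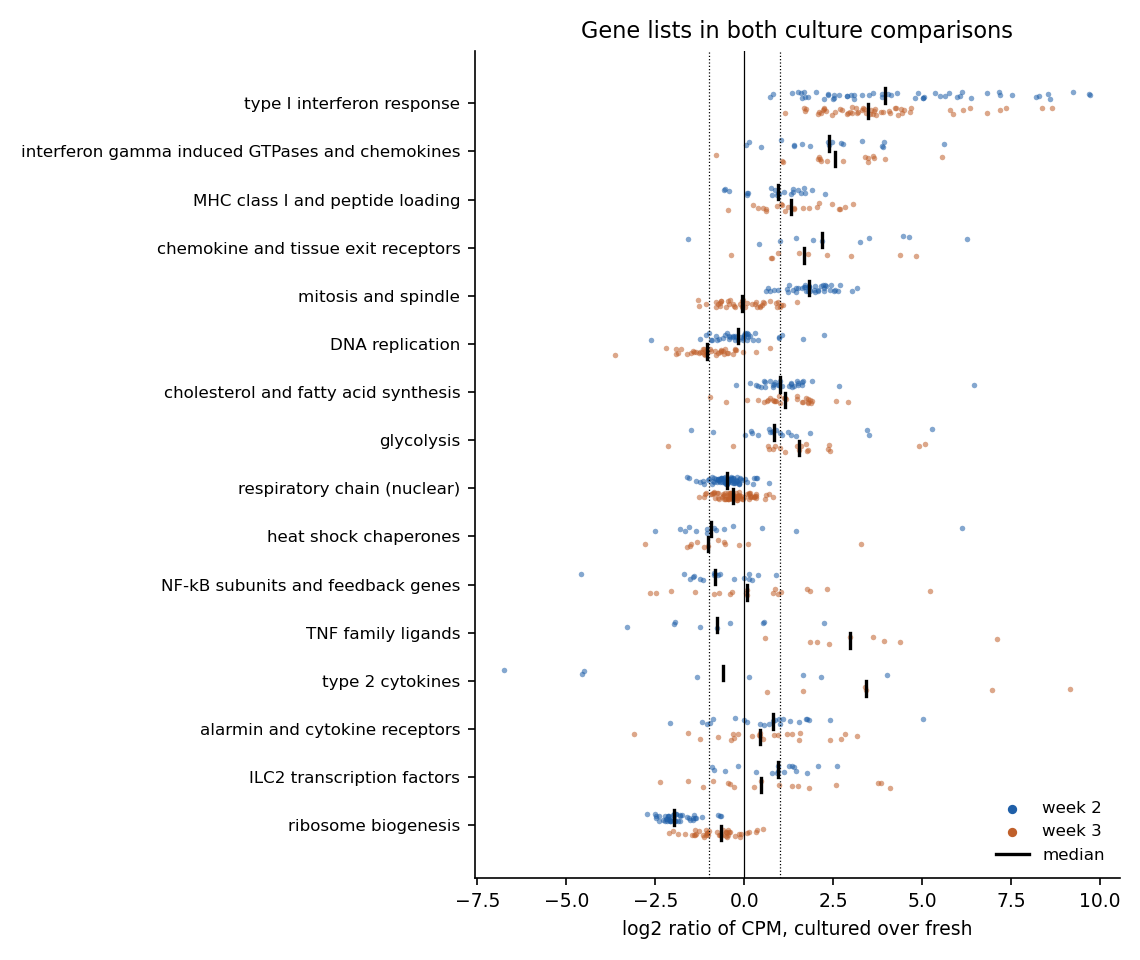
Log2 ratio of CPM, cultured over fresh, for the genes of 16 lists with at least 10 CPM in week 2, in week 2 (blue) and week 3 (brown). Black bars are medians and dotted lines 2-fold. The interferon lists lie to the right in both weeks, the mitosis list in week 2, and ribosome biogenesis to the left in week 2.

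Mitosis genes were higher and DNA replication genes were not. Of 41 mitosis and spindle genes 36 (87.8%) were at least 2-fold higher in cultured cells and 0 lower (median 1.82). *Ube2c*, a ubiquitin enzyme of the anaphase complex, was at 47.5 and 296 CPM (2.64), *Ccnb2*, a mitotic cyclin, at 5.85 and 52.4 CPM (3.16), and *Mki67*, the proliferation marker, at 37.5 and 157 CPM (2.07). Of 41 replication genes 3 (7.32%) were at least 2-fold higher and 3 (7.32%) lower (median -0.17). Both shares are under the 16.6% and 11.2% of all genes. The helicase subunits *Mcm3* (158 and 67.0 CPM, -1.23) and *Mcm2* (-1.07) and the repair enzyme gene *Ung* (45.4 and 7.31 CPM, -2.63) were lower, and *Pclaf* (1.64) and *E2f2* (2.24) higher.

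A cell was called cycling where 2 or more of a set of 12 cell cycle genes were detected in its 2000 drawn UMIs. Such cells were 136 of 1766 fresh (7.70%, interval 6.50 to 9.04) and 654 of 2681 cultured cells (24.4%, interval 22.8 to 26.1). Before thinning the shares were 28.8% and 44.3%. The genes of this call were not all from the mitosis list, since the lowest log2 ratio was -0.31 among them and 0.61 in that list. The call selects on the cell cycle, so levels of mitosis and replication genes inside and outside it are no separate result. This holds for the replication genes *Pclaf* and *Tk1*. Outside these cells *Pclaf* had a log2 ratio of 0.38 and *Tk1*, 1.06 over all cells, of -0.0028. The interferon and cytokine differences were present in both sets: *Isg15* had a log2 ratio of 5.15 in cycling and 5.86 in other cells, *Il9* of -6.72 and -6.66, and *Il13* of -1.44 and -1.08. *Ifitm3* was uneven among fresh cells, at 236 CPM in cycling and 23.4 CPM in other cells, so its log2 ratio was 1.95 in cycling cells and 5.18 outside them. *Ifitm1* was more so, at 40.3 and 0.244 CPM in fresh cells, with log2 ratios of 3.37 and 10.44, and 32.2% of its cultured UMIs lay in the 40 *Gzmc*-rich cells. *Gzmb* showed the same in fresh cells at a low level, 11.7 and 1.12 CPM.

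The most uniform group in the other direction was ribosome assembly, in a list of 44 genes put together after the lowest genes had been seen. All 44 had a log2 ratio below 0, beside 3526 of all 7524 genes. Of the 44, 41 were at least 2-fold lower, beside 11.2% of all genes, and the median was -1.98. *Ncl*, nucleolin, was at 2078 and 554 CPM (-1.91), *Npm1*, nucleophosmin, at 4271 and 1578 CPM (-1.44) and the snoRNP protein gene *Nop58* at 383 and 90.0 CPM (-2.09). The exceptions under 2-fold were *Polr1a* (-0.64), *Polr1c* (-0.73) and *Rrn3* (-0.67), which belong to RNA polymerase I transcription. *Polr1b*, another polymerase I subunit gene of the list, was no exception, at 20.5 and 3.65 CPM (-2.49). *Ncl* was lower both in cycling (-1.58) and in other cells (-2.32). *Srm*, which makes the polyamine spermidine, went with them, at 300 and 39.4 CPM (-2.93), in 38.4% of fresh and 4.70% of cultured cells after thinning (85.8% and 27.7% before, and 30.2% and 2.84% of gate-negative barcodes).

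Chaperone genes were lower as well, with 7 of 14 (50%) at least 2-fold lower and 2 (14.3%) higher (median -0.95). The mitochondrial chaperonin genes *Hspd1* (1066 and 185 CPM, -2.52) and *Hspe1* (1279 and 401 CPM, -1.67) and the cytosolic *Hsp90ab1* (4320 and 1687 CPM, -1.36) were among them, and *Hspb1*, a small heat shock protein gene, was higher, from 7 UMIs in fresh to 834 UMIs in cultured cells (6.13). Of 75 nuclear genes of the respiratory chain 68 had a ratio below 0 (median -0.48), beside 3526 of all 7524 genes. Of the 75, 7 (9.33%) were at least 2-fold lower, under the 11.2% of all genes, and 0 at least 2-fold higher. *Atp5g1*, a subunit of ATP synthase, was at 912 and 297 CPM (-1.62) and *Cyc1* of complex III at 241 and 94.7 CPM (-1.35).

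Glycolysis and sterol synthesis had the opposite tendency. Of 20 glycolysis genes 9 (45%) were at least 2-fold higher and 1 (5%) lower (median 0.84). Among the higher were *Pgk1* (557 and 1304 CPM, 1.23, and 0.99 with DESeq2 size factors) and *Pfkp* (1.45). *Gapdh* (0.79) and *Ldha* (0.22, and -0.01 with DESeq2 size factors) did not pass 2-fold. The highest ratio of the list was that of the hypoxia-responsive *Egln3* (1.77 and 68.7 CPM, 5.28). *Bnip3*, also hypoxia-responsive, was at 17.3 and 197 CPM (3.51). Of 31 cholesterol and fatty acid genes 16 (51.6%) were at least 2-fold higher and 0 lower (median 1.0). *Fdps* of the mevalonate pathway was at 70.6 and 267 CPM (1.92) and the desaturase *Scd2* at 14.2 and 90.4 CPM (2.67). Genes of ER secretion showed little of either. Of 32, 2 (6.25%) were at least 2-fold higher and 3 (9.38%) lower, both under the 16.6% and 11.2% of all genes. The higher were *Ddit3*, the stress factor CHOP (2.74), and *Atf6* (1.90). The lower were *Hspa5* (-1.05), *Ssr2* (-1.29) and *Creld2* (-1.16). With both gate genes required *Hspa5* (-0.71) and *Creld2* (-0.88) were under 2-fold. Of 21 survival genes 7 (33.3%) were at least 2-fold higher and 0 lower. *Cdkn2a*, the p16 and p19 gene, was at 5.51 and 79.7 CPM (3.85) and the pro-apoptotic *Pmaip1* at 3.05 and 20.7 CPM (2.77).

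The same comparison in week 3 gives side values from separate libraries, 902 fresh and 3738 cultured cells under the same gate. There 19.0% of 8126 genes were at least 2-fold higher and 16.1% at least 2-fold lower after culture. The week 3 fresh library was shallower (median 3511.5 UMIs per cell) and held 5366 CPM of summed T cell markers in its gated cells, and the part of these in its ratios was not tested. The cultured libraries of both weeks were close, with a Spearman correlation of 0.96 over 9045 genes. The ratios were less so, with a Spearman correlation of 0.45 over the 7275 genes counted in both weeks. Of these, 576 were at least 2-fold higher in both weeks and 293 lower in both, while 90 were higher in week 2 and lower in week 3, and 59 the reverse.

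The interferon list was higher in both weeks: all 54 type I genes were at least 2-fold higher in week 3 (median 3.48). Cytokines and NF-kB genes were not. *Il13* was at 34.3 CPM in week 3 fresh and 4332 CPM in week 3 cultured cells (6.98). *Il9* had 0 UMIs and then 343 CPM (9.15 on the log2 scale against the floor of 3 counts). TNF ligands had 8 of 9 genes at least 2-fold higher in week 3, and mitosis genes 4 of 41 higher and 3 lower. Over the 7275 genes counted in both weeks, 1412 were at least 2-fold higher and 857 at least 2-fold lower in week 3, and 293 were lower in both weeks. In ribosome biogenesis 18 of the 42 genes counted in both weeks were at least 2-fold lower in week 3 and 17 in both weeks. For *Il13*, *Il5* and *Areg* the 2 cultured libraries had levels within 2-fold of each other (3575 and 4332, 1355 and 931, and 1118 and 601 CPM), whereas the fresh *Il13* and *Il5* levels were far apart. In week 3 cultured cells *Gzmc* and *Mcpt8* were at 1.07 CPM each and *Pth* at 0.422 CPM, so their week 2 levels were not found again in the other culture.

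**Figure D5:**
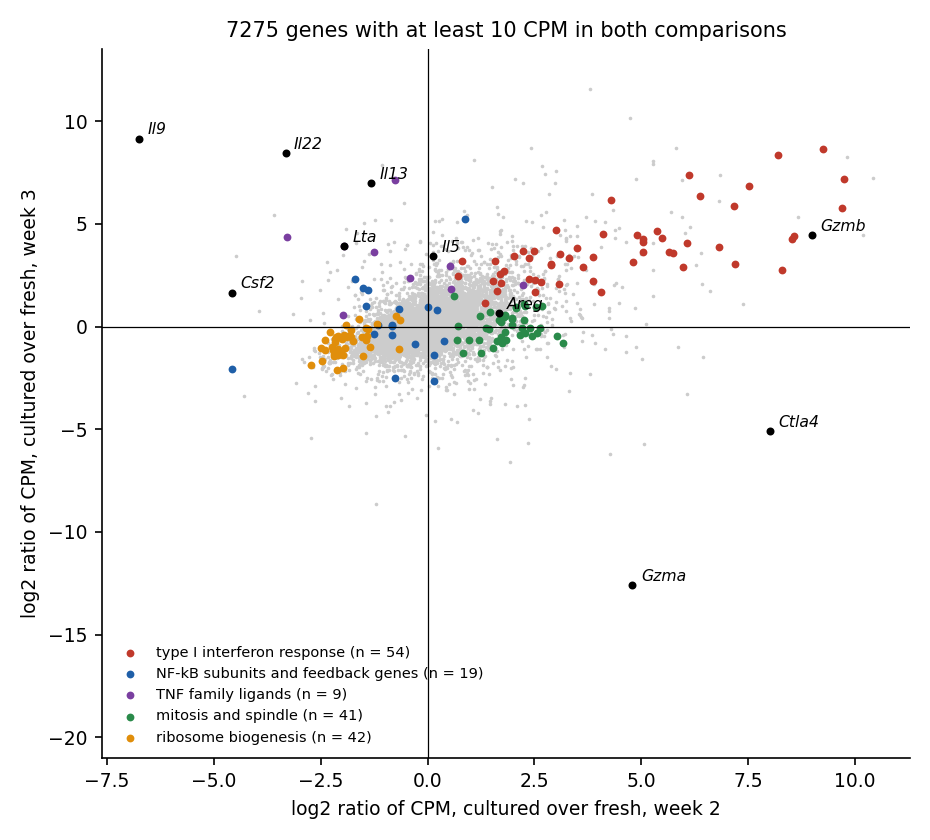
Log2 ratio of CPM, cultured over fresh, in week 2 (x axis) and week 3 (y axis) for 7275 genes. A count of 0 is replaced by the floor of 3 counts. Interferon response genes (red) lie in the upper right, and *Il9*, *Il22*, *Il13* and *Csf2* in the upper left, lower in week 2 and higher in week 3.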

How the data were processed

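RNA of sorted ILC2s was measured with the 10x Genomics 3' kit. The deposited matrices hold UMI counts, which the authors did not normalize. The submitters' processing notes name Cell Ranger 3.0.2, Seurat 3 and GRCm38 (the naïve matrix header names Cell Ranger 6.0.0). Gene positions come from GENCODE M21, in which 27639 of 27726 genes were found. The members, gene lists and comparisons were chosen with earlier results of these data known.

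Counts of the gated cells were summed per library and divided by their total (CPM). Genes with at least 10 CPM in 1 or both libraries were counted, and a fold against 0 counts used a floor of 3 counts in that library. No test was run, since each side has 1 library. Intervals are exact Poisson, conditional binomial or Clopper-Pearson at 95%, and cover counting error only. Doublets were not called; leaving out the 5% of cells with the most UMIs stands in for it. The rule for named genes took the 15 highest and 15 lowest ratios among genes with at least 100 CPM, in each list the 6 largest ratios and members at 1000 CPM or more, the genes the study names, and the gate genes. Other genes, and the ribosome biogenesis list, were added after their values were seen. The log2 ratio, interval and thinning steps were tested on simulated data. Computation used pandas 2.3.3, scipy 1.17.1 and numpy 2.4.6 under Python 3.11.15, with edgeR 4.0.16 and DESeq2 1.42.0 in R 4.3.3 for scaling factors only. The alternatives were those scalings, other filters on genes and cells, 1 CPM added, means over cells, and leaving out cycling cells; leaving out *Gzmc*-high cells was chosen after seeing the data. A few genes are not reported here.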

Additional observations from a re-analysis of the deposited data

Results flagged for a closer look

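Of 198 named genes reported here and counted in both weeks, 32 were at least 2-fold apart in opposite directions after culture in week 2 and in week 3, 16 of them lower in week 2 and higher in week 3 and 16 the reverse. Over all 7275 genes counted in both weeks, 149 were opposite in this way. The naming rule took many genes for the size of their week 2 ratio, so the 2 shares cannot be compared. *Tph1*, added outside the rule after its values were seen, was opposite as well (-1.06 in week 2 and 7.88 in week 3). Values are log2 ratios of cultured over fresh CPM. The difference between the weeks was not tested, since each has 1 library on a side. Some of the week 2 ratios fell under 2-fold in an alternative. With both gate genes required these were *Il13*, *Nfkb2*, *Traf1*, *Zeb2*, *Tnfsf8*, *Tcrg-C1* and *Cd27* (0.28). *Tnfsf8* also did so without cycling cells or with a mitochondrial limit of 10%. *Trbc1* did so with either scaling, *Pnrc1* with DESeq2 size factors, and *Nkg7* without the *Gzmc*-rich cells. *Trbc1* and *Nkg7* also did so as means over cells.

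Among cytokines the genes lower in week 2 and higher in week 3 were *Il9* (-6.75 in week 2 and, against the floor of 3 counts, 9.15 in week 3), *Csf2* (-4.57 in week 2 and 1.65 in week 3), *Il22* (-3.32 in week 2 and 8.43 in week 3) and *Il13* (-1.32 in week 2 and 6.98 in week 3). In the TNF family they were *Tnfsf4* (-3.29 in week 2 and 4.37 in week 3), *Tnfrsf25* (-2.10 in week 2 and 1.35 in week 3), *Lta* (-1.95 in week 2 and 3.93 in week 3) and *Tnfsf8* (-1.25 in week 2 and 3.62 in week 3). In NF-kB signalling they were *Nfkb2* (-1.70 in week 2 and 2.32 in week 3), *Relb* (-1.52 in week 2 and 1.85 in week 3), *Nfkbib* (-1.44 in week 2 and 1.02 in week 3) and *Traf1* (-1.40 in week 2 and 1.78 in week 3). The others were *Ccdc50* (-2.96 in week 2 and 1.38 in week 3), *Hacd3* (-2.95 in week 2 and 2.22 in week 3), *Mir155hg* (-2.52 in week 2 and 1.76 in week 3) and *Zeb2* (-1.26 in week 2 and 2.31 in week 3). For *Il22* the week 3 fresh value rests on 2 UMIs (interval of the log2 ratio 6.58 to 11.48).

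Of the genes higher in week 2 and lower in week 3, a group marks T cells or cytotoxic lymphocytes, *Trbc1* (1.07 in week 2 and -4.07 in week 3), *Tcrg-C1* (1.45 in week 2 and -3.77 in week 3), *Nkg7* (1.93 in week 2 and -6.58 in week 3), *Cd3g* (2.10 in week 2 and -3.89 in week 3), *Cd27* (2.29 in week 2 and -3.84 in week 3) and *Gzma* (4.79 in week 2 and -12.60 in week 3). Summed T cell markers were at 5366 CPM in the gated week 3 fresh cells and 367 CPM in the week 2 fresh cells, and their part in these differences was not tested. Early-response and mRNA decay genes were *Pnrc1* (1.21 in week 2 and -1.56 in week 3), *Fosl2* (1.48 in week 2 and -3.50 in week 3), *Btg2* (1.65 in week 2 and -1.96 in week 3) and *Zfp36* (2.89 in week 2 and -1.92 in week 3). The remaining genes were *Ikzf2* (1.33 in week 2 and -1.16 in week 3), *H2-DMa* (1.75 in week 2 and -1.12 in week 3), *Bcl2l11* (1.81 in week 2 and -3.78 in week 3), *Arg1* (3.0 in week 2 and -2.05 in week 3), *Il21r* (5.02 in week 2 and -1.57 in week 3) and *Ctla4* (8.02 in week 2 and -5.10 in week 3), and the week 2 value of *Ctla4* rests on 3 fresh UMIs (interval 6.47 to 10.29).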

How the results depend on the processing

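The count of genes at least 2-fold higher (1251) stayed within 1.5 times under all but 2 of the 14 alternatives, and that of genes at least 2-fold lower (839) under all but 3. With no filter on low genes the counts were 3745 and 1405, and with a filter of 50 CPM 479 and 492, since more or fewer genes were then counted. With DESeq2 size factors 1268 genes were lower. With edgeR's TMM factors the split was 957 higher and 1208 lower. Of 239 named or added genes past 2-fold, between 0 and 24 fell under 2-fold in any 1 alternative, most with both gate genes required. *Tk1* changed sign without cycling cells (-0.0028), and *Ifng* without cells of 10 or more *Gzmc* UMIs (-5.41), the setting chosen after seeing the data. No paired analysis was possible because each side has 1 library and no test was run. A count of 0 allows up to 0.0914 CPM in the fresh and 0.0539 CPM in the cultured library.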
